A study of Homo sapiens with 12 samples.

Results

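HSPA5 encodes BiP, the major Hsp70 chaperone in the lumen of the endoplasmic reticulum, and it gained reads at d0 and d3 in cells with t(4;11) fusion proteins. It was examined here together with 9 other genes of the unfolded protein response: HSP90B1, CALR, PDIA4, PDIA6, DNAJB9, XBP1, ATF4, DDIT3 and HERPUD1. The 10 genes were taken by their symbols from 52889 gene entries, of which 27579 passed the filter on low counts, and all 10 were among those tested. HSPA5 was chosen by its read counts at d0 and d3 against Mock cells, so its values there are a description with no test, and the question is whether the other 9 genes shared the gain.

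The data are ATAC-Seq read counts per gene in HEK293T cells, a human embryonic kidney line, in 4 groups of 3 biological replicates. In ATAC-Seq, Tn5 transposase cuts accessible DNA in nuclei, so that open chromatin yields more reads. Mock cells carried the empty vector pSBTet-GP. Cells of d0 carried constitutive MLL-AF4, the direct fusion protein of the translocation. Cells of d3 had constitutive MLL-AF4 plus inducible AF4-MLL, the reciprocal fusion protein, whose vector was brought in by transient transfection and which had been switched on by 1 µg/ml doxycycline during 48 h. By the study's account, cells of d28 had also gone through the transfection and induction of AF4-MLL before it was shut down. They had then been grown for 25 days without doxycycline, and the labels give them the same genotype as d0. The labels name neither a harvest day nor a doxycycline treatment for Mock cells. Both fusion proteins were expressed from Sleeping Beauty vectors in a kidney line, not in blood cells.

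Proteins that fold in the endoplasmic reticulum are assisted by lumenal chaperones and disulfide isomerases. When unfolded proteins accumulate, the sensors IRE1, PERK and ATF6 are activated. IRE1 splices the mRNA of XBP1, PERK phosphorylates eIF2α and so favours translation of ATF4, and ATF6 is cut into an active transcription factor. ATF6 and XBP1 bind an endoplasmic reticulum stress response element (ERSE) in the promoters of chaperone genes, and BiP itself holds the sensors inactive in unstressed cells.

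The RefSeq promoter sequences of the 10 genes (GRCh38.p14, all 10 matched) were searched for 4 elements on both strands, from 250 bases before to 50 bases after the start site. An exact ERSE, which is CCAAT, then 9 bases of any kind, then CCACG, was found in the promoters of HSPA5, HSP90B1, CALR and XBP1, that is in 40% of the 10, against 0.0806% of 27305 promoters. The 250 bases upstream of these 4 genes are shown 5′ to 3′, since they carry the element that HSPA5 shares with the genes it is compared with. Capitals mark the fixed letters of the ERSE, which read as their reverse complement where the match lies on the other strand, as in CALR and the second match of HSP90B1.
HSPA5 (chr9:125241344-125241593, minus strand): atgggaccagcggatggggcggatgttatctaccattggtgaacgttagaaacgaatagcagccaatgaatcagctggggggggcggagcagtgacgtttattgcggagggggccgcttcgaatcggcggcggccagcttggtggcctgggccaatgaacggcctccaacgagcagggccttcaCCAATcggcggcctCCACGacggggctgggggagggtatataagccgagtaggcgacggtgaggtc
HSP90B1 (chr12:103930160-103930409, plus strand): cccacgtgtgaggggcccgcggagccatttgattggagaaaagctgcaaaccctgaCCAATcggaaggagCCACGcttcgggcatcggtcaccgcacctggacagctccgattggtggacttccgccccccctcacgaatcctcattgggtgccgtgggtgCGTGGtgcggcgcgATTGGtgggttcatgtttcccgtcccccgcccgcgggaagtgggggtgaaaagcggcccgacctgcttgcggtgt
CALR (chr19:12938359-12938608, plus strand): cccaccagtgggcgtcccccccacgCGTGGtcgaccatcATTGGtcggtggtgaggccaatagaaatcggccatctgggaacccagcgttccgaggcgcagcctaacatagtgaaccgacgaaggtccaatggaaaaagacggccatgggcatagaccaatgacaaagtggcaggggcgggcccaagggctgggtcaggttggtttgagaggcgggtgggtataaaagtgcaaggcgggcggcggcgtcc
XBP1 (chr22:28800570-28800819, minus strand): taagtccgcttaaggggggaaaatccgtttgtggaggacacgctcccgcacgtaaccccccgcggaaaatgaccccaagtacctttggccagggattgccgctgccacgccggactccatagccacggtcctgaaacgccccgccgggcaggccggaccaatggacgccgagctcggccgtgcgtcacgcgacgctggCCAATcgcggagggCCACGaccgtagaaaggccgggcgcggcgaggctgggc
The ERSE of HSPA5 lay from -66 to -48 relative to the start site, and that of XBP1 from -52 to -34. HSP90B1 had 2 matches, at -194 to -176 and at -89 to -71, and that of CALR was farther upstream, at -225 to -207. The promoter of HERPUD1 had an ERSE-II (ATTGG, then 1 base of any kind, then CCACG) in place of an ERSE, at -117 to -107, and a CARE (TGATGNAA, bound by ATF4) at -176 to -169, with no overlap between them. Their letters are given on the strand of the match, with the fixed letters in capitals.
HERPUD1, ERSE-II: ATTGGgCCACG
HERPUD1, CARE: TGATGcAA
ERSE-II was found in 0.0549% and CARE in 3.67% of all promoters. The UPRE (TGACGTGG), present in 0.795% of all promoters, had no match in the windows of the 10 genes. No exact ERSE or ERSE-II was found in the windows of PDIA4, PDIA6, DNAJB9, ATF4 and DDIT3. The 250 upstream bases of PDIA6 (chr2:10832486-10832735, minus strand) lay inside its RefSeq span, chr2:10783391-10837712. The upstream end of that span was thus not searched for PDIA6. With 1 mismatch allowed in the fixed letters, an ERSE was present in 6 of the 10 windows and in 1.59% of all windows, and HSP90B1 was the 1 gene among 27305 with at least 3 of them. The ERSE is an element of chaperone gene promoters, as given above, so its high share among the 10 genes was no test. A match describes letters only. The counts were made per gene, and binding was not measured.

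A gain of the size seen at HSPA5 at d0 and d3 was not found in the other genes, of which CALR came closest. HSPA5 (ENSG00000044574, chr9:125234853-125241343) had normalized counts, that is counts scaled to a common library size, of 41.9, 43.8 and 29.5 in Mock cells. They were 93.3, 108 and 73.8 at d0, while d3 had 139, 114 and 132, and d28 had 52.2, 61.9 and 69.9. Every sample of each day was above every Mock sample, and the samples of d3 were the highest. The means were 38.4 ± 7.76 in Mock cells, 91.6 ± 17.0 at d0, 128 ± 12.8 at d3 and 61.3 ± 8.84 at d28 (SD, n = 3).

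On the log2 scale the HSPA5 count was higher than in Mock cells by 1.22 at d0 (standard error (SE) 0.20, 95% interval 0.83 to 1.60) and by 1.71 at d3 (SE 0.17, interval 1.37 to 2.05). The difference between d3 and d0 was 0.49 (interval 0.22 to 0.76), and d28 lay below d3 by a log2 fold change of -1.12 (interval -1.38 to -0.86) and below d0 by -0.63 (interval -0.93 to -0.32). These 5 values share samples with the choice of the gene and have no test. At d28 the log2 fold change against Mock cells was 0.59 (interval 0.20 to 0.98), and its adjusted p of 0.107 in edgeR's quasi-likelihood test did not pass 0.05. The test reused the Mock samples by which HSPA5 was chosen, so this p is not independent of the choice. The raw counts behind these values were between 16 and 34 in Mock cells and between 133 and 180 at d3. In a culture of many cells, a larger share of cells with an open gene and a more open gene in each cell cannot be told apart.

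**Figure D1:**
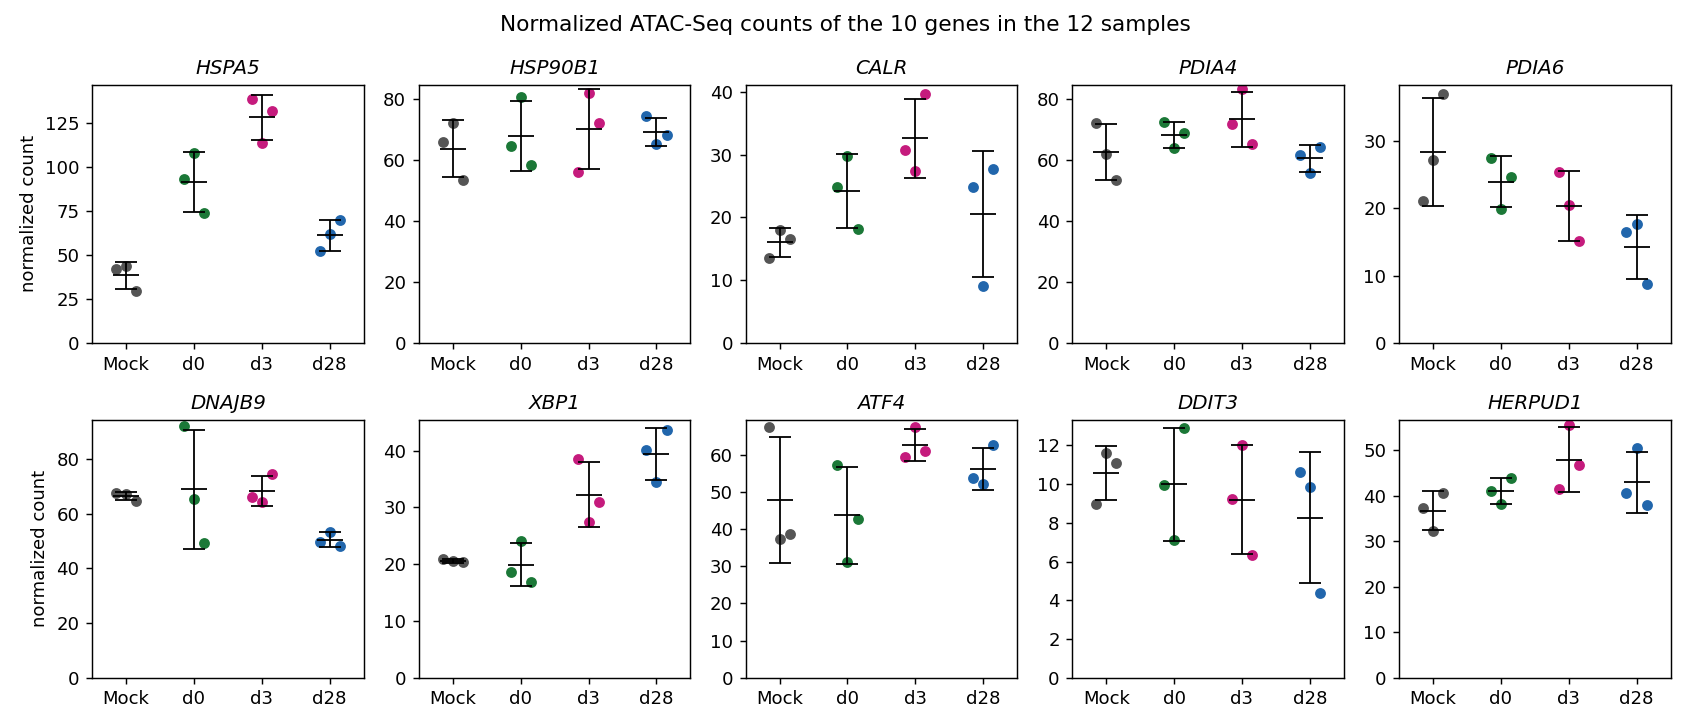
Normalized ATAC-Seq read count (y axis, from 0, with a scale of its own in each panel) of each of the 10 genes in Mock, d0, d3 and d28 cells. Points are samples (n = 3), and the lines are mean ± SD. The HSPA5 samples of d3 lie between 114 and 139, against 29.5 to 43.8 in Mock cells, whereas the groups overlap for HSP90B1.

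Of the other 9 genes, 0 passed an adjusted p of 0.05 at d0 against Mock cells in edgeR's quasi-likelihood test, and 0 had an unadjusted p below 0.05. DESeq2 also called 0, but it gave CALR, PDIA6 and DDIT3 no adjusted p there. The smallest adjusted p in edgeR's test was 0.585, for CALR. Of all tested genes, 0.609% passed in that comparison. At d3, 1 of the 9 passed, CALR, where 1.27% of all tested genes passed, and 3 had an unadjusted p below 0.05. At d28, 1 of the 9 passed, XBP1, against a share of 1.45% of all tested genes, and 3 had an unadjusted p below 0.05. Both calls depended on the procedure, as given with each gene below. No share of all tested genes was computed for an unadjusted p below 0.05, so the unadjusted counts are not read as a result about the 9 genes.

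The 95% intervals of the fit give the precision of these values. That of HSPA5 against Mock cells was 0.83 to 1.60 at d0 and 1.37 to 2.05 at d3. On both days the interval of CALR overlapped with it, reaching 1.22 and 1.57, and those of the other 8 genes lay below it. This is a description, since HSPA5 was chosen by these values. The intervals of all 9 held 0 at d0, and those of 6 of 9 did so at d3. The median log2 fold change of the 10 genes against Mock cells was 0.06 at d0, then 0.30 at d3 and 0.15 at d28, and that of all tested genes was 0 at d0 and 0.03 at d3 and d28. Without HSPA5 the medians were 0.06, 0.21 and 0.11.

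**Figure D2:**
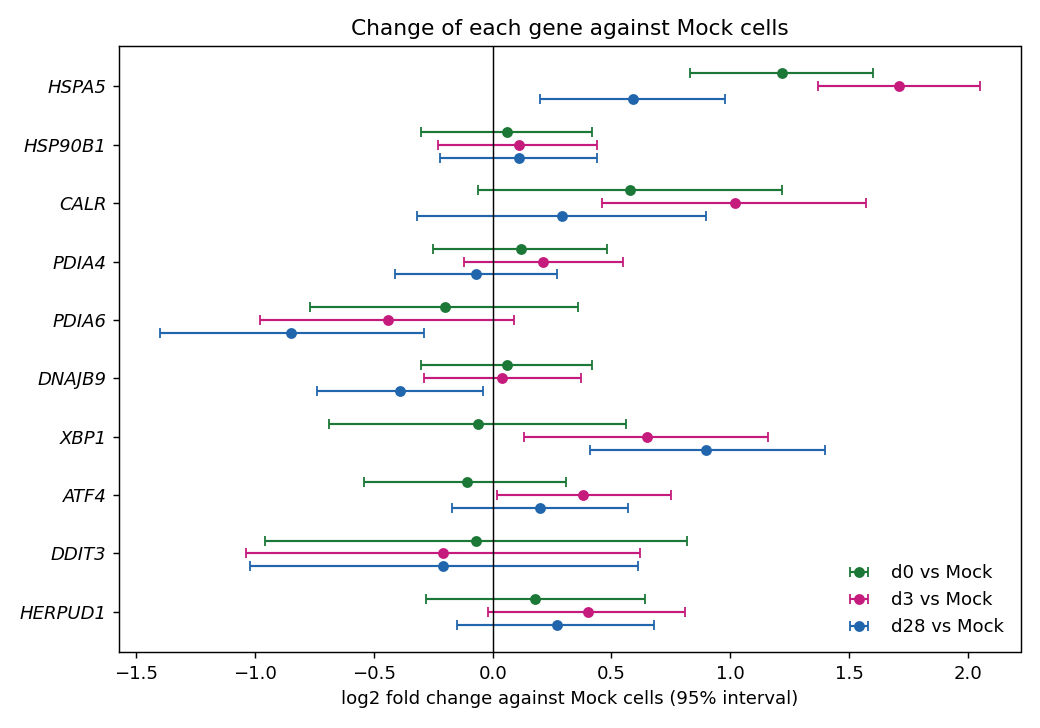
Log2 fold change against Mock cells (x axis) of each of the 10 genes at d0, d3 and d28 (points), with the 95% interval from the edgeR fit (bars). HSPA5 stands at 1.22 at d0 and 1.71 at d3, and the bars of the other genes at d3 end at 1.57 or lower.

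Among the lumenal chaperones, CALR, which encodes the calcium-binding lectin chaperone calreticulin (ENSG00000179218, chr19:12938609-12944489), came closest to HSPA5. Its normalized counts were 13.5, 18.0 and 16.6 in Mock cells, 24.9, 29.8 and 18.1 at d0, 30.8, 27.4 and 39.6 at d3, and then 24.8, 9.14 and 27.7 at d28. The samples of d0 and d3 were all above those of Mock cells, by a narrow margin for the lowest d0 sample, while d28 overlapped with Mock cells. Of all tested genes, the samples were all above those of Mock cells in 7.37% of all tested genes at d0 and 9.84% at d3. The CALR count rose at d3 by 1.02 on the log2 scale (SE 0.28, adjusted p = 0.0325, edgeR), and at d0 its log2 fold change was 0.58 (SE 0.33, adjusted p = 0.585, edgeR). The call at d3 rests on raw counts of 9 to 14 in Mock cells. It was lost with DESeq2, where the log2 fold change was 0.97 and the adjusted p was 0.235, with RLE factors at an adjusted p of 0.0561 and without Mock replicate 1, 2 or 3 or d3 replicate 3, where the adjusted p was at most 0.235.

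HSP90B1, the gene of the Hsp90 chaperone GRP94 (ENSG00000166598, chr12:103930410-103947926), whose promoter had 2 ERSE matches, was not called on any day. Its normalized count was 63.9 ± 9.49 in Mock cells, 67.9 ± 11.6 at d0, 70.2 ± 13.1 at d3 and 69.4 ± 4.58 at d28 (SD, n = 3). The samples of every day overlapped with those of Mock cells, from 53.5 to 72.2 in Mock cells and from 56.2 to 82.2 at d3. The log2 fold change was 0.06 at d0 (interval -0.30 to 0.42) and 0.11 at d3 (interval -0.23 to 0.44).

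The 2 disulfide isomerases, which form and rearrange disulfide bonds in folding proteins, were not called against Mock cells on any day. PDIA4 (ENSG00000155660) had a normalized count of 62.4 ± 9.17 in Mock cells, 68.2 ± 4.19 at d0, 73.2 ± 9.13 at d3 and 60.4 ± 4.40 at d28 (SD, n = 3), and overlapped with Mock cells on each day. Against Mock cells its log2 difference was highest at d3, at 0.21 (interval -0.12 to 0.55).

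PDIA6 (ENSG00000143870) had negative values on each day. Its normalized counts were 21.0, 27.1 and 36.9 in Mock cells, 27.4, 19.9 and 24.6 at d0, 25.4, 20.5 and 15.1 at d3, and then 16.4, 17.6 and 8.74 at d28. The samples of d28 were all below those of Mock cells, as was the case for 7.79% of all tested genes, and the lowest rested on 6 reads. Its log2 differences from Mock cells were -0.20 at d0, then -0.44 at d3 and -0.85 at d28 (interval -1.40 to -0.29), and the last had an adjusted p of 0.110 (edgeR), which did not pass. The RefSeq span of PDIA6 overlaps that of ATP6V1C2, so reads of the 2 genes may not be separated.

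DNAJB9, which encodes the BiP cochaperone ERdj4 (ENSG00000128590), had normalized counts of 67.4, 67.0 and 64.6 in Mock cells and 92.1, 65.2 and 49.2 at d0. They were 66.2, 64.2 and 74.5 at d3 and 49.6, 53.4 and 48.1 at d28. The d0 samples spread on both sides of the Mock samples, and those of d3 overlapped with them. Those of d28 were all lower, as for 7.79% of all tested genes. The log2 difference from Mock cells was 0.06 at d0, then 0.04 at d3, and -0.39 at d28, the last with an adjusted p of 0.318 (edgeR). HERPUD1, a membrane protein of endoplasmic reticulum-associated degradation (ENSG00000051108), had a count of 36.8 ± 4.23 in Mock cells, 41.1 ± 2.87 at d0, 48.0 ± 7.11 at d3 and 43.0 ± 6.72 at d28 (SD, n = 3). Its d3 samples, from 41.6 to 55.6, were above all Mock samples, from 32.2 to 40.6, as for 9.84% of all tested genes. Its log2 fold change of 0.40 did not pass (interval -0.02 to 0.81, adjusted p = 0.478, edgeR).

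Of the 3 transcription factors, XBP1 passed the test, at d28 against Mock cells and against d0. XBP1 (ENSG00000100219, chr22:28794560-28800569) had normalized counts of 21.0, 20.6 and 20.3 in Mock cells and 18.7, 24.1 and 16.8 at d0. They were 38.5, 27.4 and 30.9 at d3 and 40.1, 34.5 and 43.7 at d28. Mock and d0 samples overlapped, and all samples of d3 and d28 were above both. Such a separation was seen in 9.93% of all tested genes between d28 and Mock cells and in 10.2% between d28 and d0. For d3 the shares were 9.84% against Mock cells and 10% against d0. Against Mock cells the log2 difference was -0.06 at d0 (interval -0.69 to 0.56), where HSPA5 had already gained, and 0.65 at d3 (SE 0.26, adjusted p = 0.274, edgeR).

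At d28, XBP1 rose by 0.90 against Mock cells (SE 0.25, adjusted p = 0.0310) and by 0.97 against d0 (SE 0.24, adjusted p = 0.0118), both in edgeR's test. Of all tested genes, 1.35% passed between d28 and d0. Between d28 and d3, HSPA5 went from 128 to 61.3 in normalized count, whereas XBP1 was 32.3 ± 5.68 at d3 and 39.4 ± 4.65 at d28 (SD, n = 3), a log2 difference of 0.26 (interval -0.12 to 0.63). The call against Mock cells was lost with DESeq2 (adjusted p = 0.141). It was also lost without Mock replicate 1, 2 or 3 and without d28 replicate 1 or 3 (adjusted p up to 0.139), and over the 6 fits that leave out 1 Mock or d28 sample the log2 fold change stayed between 0.87 and 1.01. The call against d0 was lost without d0 replicate 1 or 3 or d28 replicate 1 (adjusted p up to 0.115).

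ATF4, the factor translated under PERK signalling (ENSG00000128272), had normalized counts of 67.4, 37.4 and 38.8 in Mock cells, 57.2, 31.2 and 42.7 at d0, 59.3, 67.6 and 61.0 at d3, and then 53.8, 52.0 and 62.6 at d28. The d3 samples were above those of d0, as in 10% of all tested genes, but overlapped with Mock cells, because 1 Mock sample was as high. The log2 difference from Mock cells was 0.38 at d3 (adjusted p = 0.405, edgeR), and between d3 and d0 it was 0.50 (SE 0.18, adjusted p = 0.190, edgeR), so neither passed. DDIT3, the gene of the pro-apoptotic factor CHOP (ENSG00000175197), had the fewest reads of the 10 genes, with normalized counts from 4.37 to 12.9 over all 12 samples. Its log2 fold changes against Mock cells were between -0.21 and -0.07, with intervals of -0.96 to 0.82 at d0 and -1.04 to 0.62 at d3. True changes anywhere within these intervals remain possible at this depth, and the gene overlaps MARS1 in RefSeq.

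The remaining comparisons gave no further call. Between d3 and d0, and between d28 and d3, 0 of the 9 genes passed (edgeR), where 0.910% and 0.370% of all tested genes did. An unadjusted p below 0.05 was seen for 2 of the 9 in each, again without a share of all tested genes to set beside it. DESeq2 called 0 in both, but it gave DDIT3 no adjusted p between d3 and d0. CALR had a log2 fold change of -0.73 between d28 and d3 (adjusted p = 0.143, edgeR), and DNAJB9 one of -0.43 (adjusted p = 0.272, edgeR). These were the lowest values after HSPA5 in that comparison and neither passed, and all d28 samples were below those of d3 for DNAJB9 and PDIA4, as for 7.51% of all tested genes.

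As a description over the 12 samples, the Pearson correlation of log2 normalized counts with HSPA5 was 0.688 for CALR, 0.579 for PDIA4 and 0.447 for HERPUD1, and between -0.284 and 0.308 for the other 6 genes. Of 8329 genes whose mean normalized count was 20 or more, 2.77% had a higher correlation with HSPA5 than CALR, and 6.88% a higher one than PDIA4. Among themselves, the 9 genes had a median correlation of 0.0877 over 36 pairs, from -0.71 to 0.772. The points share libraries and groups, so that no p is given. The genes whose pattern was most like that of HSPA5 were PCF11 (r = 0.894), TPP1 (0.894), MYC (0.892), AL355490.2 (0.891) and DCAF8 (0.889), and none of the 10 genes or of the further genes listed below is among them. TPP1, for example, had mean normalized counts of 23.0 in Mock cells, 39.0 at d0, 49.4 at d3 and 32.7 at d28.

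No gain was called in the genes beside it on chromosome 9. Of the 5 tested genes on each side, 0 of 10 passed against Mock cells on any day (edgeR). This is near the share of all tested genes, which was 0.609%, 1.27% and 1.45% at d0, d3 and d28. The median log2 fold change of the 10 neighbours was -0.11 at d0, then 0.07 at d3 and 0.09 at d28. Their values were within -1.38 to 0.48 at d0 and -0.73 to 0.57 at d3. The nearest, RABEPK, 0.7 kb away, had log2 differences from Mock cells of 0.11 at d0 and 0.31 at d3, and GAPVD1, 20.5 kb away on the other side, had -0.12 and 0.34. The neighbours of CALR and XBP1 gave no call against Mock cells either, again near the share of all tested genes. Their medians were -0.12 around CALR at d3 and 0.11 around XBP1 at d28.

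**Figure D3:**
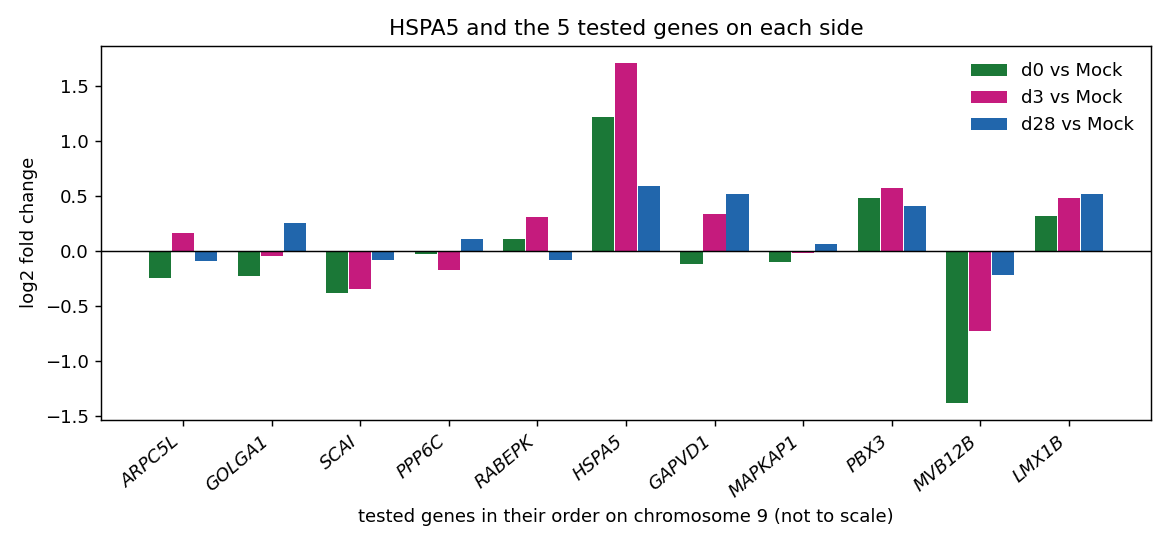
Log2 fold change against Mock cells (y axis) at d0, d3 and d28 of HSPA5 and the 5 tested genes on each side, in their order on the chromosome (x axis, not to scale). The HSPA5 bars reach 1.22 and 1.71 at d0 and d3, and the neighbours' bars lie between -1.38 and 0.57.

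A wider list of 94 genes of the same pathways, all of them tested, had calls against Mock cells near the share of all tested genes, and those calls were losses. The list held sensors, chaperones, isomerases, degradation factors, genes of the PERK branch, membrane-bound bZIP factors and the translocon. Against Mock cells, 0 of 94 passed at d0, 2 at d3 and 2 at d28 (edgeR). At d0, 11 had an unadjusted p below 0.05 (edgeR), with 20 at d3 and 13 at d28. No share of all tested genes was computed for an unadjusted p. At d0 DESeq2 called 0 but gave PDIA3 no adjusted p. Of all tested genes, 0.609%, 1.27% and 1.45% passed on these days, in either direction. The median log2 fold change of the 94 was 0, 0.06 and 0 on the 3 days. None of the 94 had a higher count than in Mock cells at an adjusted p below 0.05. At d3, all samples were above those of Mock cells for 16 of the 94, against 9.84% of all tested genes. They were all below for 9, against 6.7%. At d28 the samples of 6 genes were all above and those of 12 all below, against 9.93% and 7.79% of all tested genes. The 14 lumenal chaperones and cochaperones had medians of 0.07, 0.08 and 0.01, and none of them passed against Mock cells. In this class the wider list also held CANX, the membrane-bound relative of calreticulin, with an ERSE of its own and counts of 140 in Mock cells and 142 at d3.

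Both genes that were lower are known targets of ATF4, but their class of PERK and integrated stress response genes was not lower as a whole. Of its 22 genes, 16 had a positive log2 fold change against Mock cells at d3 and 12 at d28. The class medians were 0.09 and 0.03, against 0.03 for all tested genes on both days. TRIB3, a pseudokinase gene, had normalized counts of 31.4, 45.1 and 46.1 in Mock cells and 24.6, 20.5 and 15.8 at d3, with 21.6, 21.8 and 14.6 at d28. At d0 they were 23.6, 14.2 and 28.5. At d3 and d28 each sample was below those of Mock cells, a separation seen in 6.7% and 7.79% of all tested genes. TRIB3 fell by 1.00 on the log2 scale at d3 (SE 0.25, adjusted p = 0.00817, edgeR) and likewise at d28 (adjusted p = 0.00632, edgeR). At d0 the log2 fold change was -0.87 (SE 0.27, adjusted p = 0.124, edgeR), which did not pass, and d3 differed from d0 by -0.13.

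ATF3, a stress-induced bZIP factor gene, had normalized counts of 49.4, 61.9 and 46.1 in Mock cells, 34.6, 29.1 and 23.8 at d3 and 29.5, 27.4 and 16.0 at d28. Again no sample of d3 or d28 reached the lowest Mock sample, as for 6.7% and 7.79% of all tested genes. ATF3 fell by 0.86 at d3 (adjusted p = 0.00719, edgeR) and by 1.02 at d28 (SE 0.21, adjusted p = 0.000436, edgeR). All 4 calls held with DESeq2. Without Mock replicate 2 all 4 were lost, with log2 differences of -0.87 for TRIB3 on both days and of -0.68 and -0.83 for ATF3, and the adjusted p was at most 0.258. TRIB3 was also lost without Mock replicate 3, and both genes at d3 without d3 replicate 3.

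**Figure D4:**
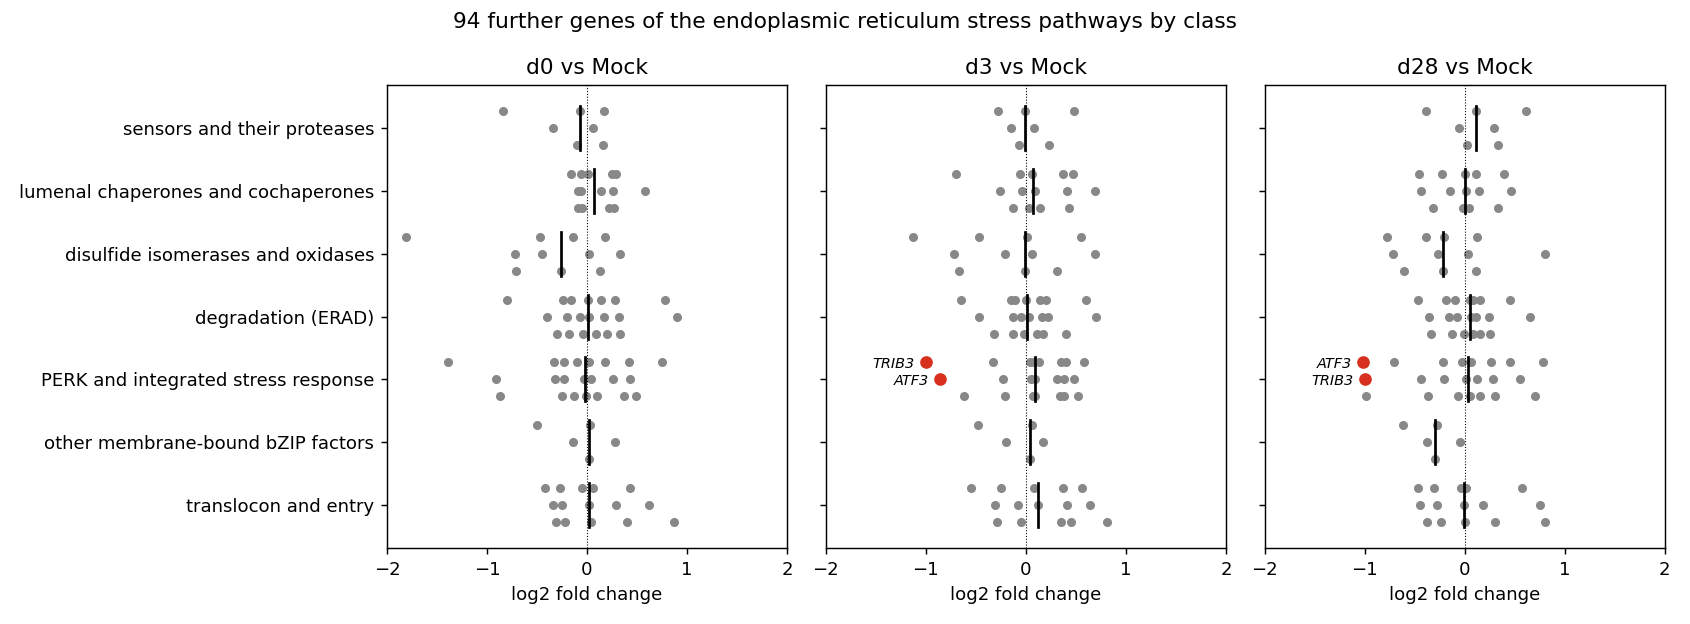
Log2 fold change against Mock cells (x axis) of the 94 further genes (points) by class (rows) at d0, d3 and d28. Red points passed an adjusted p of 0.05 and black bars are class medians. The 2 red points at d3 and the 2 at d28 are TRIB3 and ATF3, all between -1.02 and -0.86.

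PPP1R15A, which encodes GADD34, the subunit that directs phosphatase PP1 to eIF2α and so reverses PERK signalling, was the gene of the list with the smallest adjusted p. Its normalized counts were 37.4, 30.9 and 42.5 in Mock cells and 14.9, 28.4 and 15.5 at d0. They were 53.9, 42.8 and 44.4 at d3 and 21.6, 23.2 and 21.8 at d28. The d3 samples were the highest of all, by a narrow margin over the top Mock sample, and those of d28 lay below Mock cells. Of all tested genes, 9.84% had all d3 samples above Mock cells, and 7.79% had all d28 samples below them. It rose by 1.28 from d0 to d3 (SE 0.24, adjusted p = 0.000182, edgeR) and fell by 1.08 from d3 to d28 (SE 0.20, adjusted p = 2.27e-05, edgeR), and both calls held with DESeq2 and without any 1 sample. At d0 its log2 difference from Mock cells was -0.91 (adjusted p = 0.125, edgeR), the sign opposite to that of HSPA5. It was 0.38 at d3 (adjusted p = 0.522, edgeR) and -0.71 at d28 (adjusted p = 0.125, edgeR), so PPP1R15A did not pass against Mock cells on any day.

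Of the 94 genes, 3 passed between d3 and d0, against 0.910% of all tested genes, and 2 between d28 and d0, against 1.35%. PDIA3, the isomerase that works with calreticulin, had few reads. Its normalized counts were 6.22, 4.25 and 10.4 at d0, 20, 18.8 and 17.4 at d3, then 19.5, 19.7 and 23.3 at d28, with 7.38 to 16.5 in Mock cells. It rose against d0 by 1.40 at d3 (adjusted p = 0.0321, edgeR) and by 1.52 at d28 (adjusted p = 0.00769, edgeR), and did not pass against Mock cells. Both calls were lost without d0 replicate 1 or 2, and that at d3 also without any 1 of the d3 samples and with DESeq2 (adjusted p = 0.235).

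CRELD2, a chaperone gene with an ERSE from -80 to -62, went the other way. Its counts were 54.7, 49.6 and 50.5 at d0, 29.3, 18.8 and 30.9 at d3, then 35.4, 29.5 and 27.7 at d28. It fell by 0.96 from d0 to d3 (SE 0.21, adjusted p = 0.00251, edgeR) and by 0.70 from d0 to d28 (adjusted p = 0.0393, edgeR), and the last call was lost in each fit without 1 sample of d0 or d28 and with DESeq2 (adjusted p = 0.0713). The call at d3 was lost without d3 replicate 2 (adjusted p = 0.0623). In the same comparison of d3 with d0, the log2 difference of HSPA5 was 0.49.

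**Figure D5:**
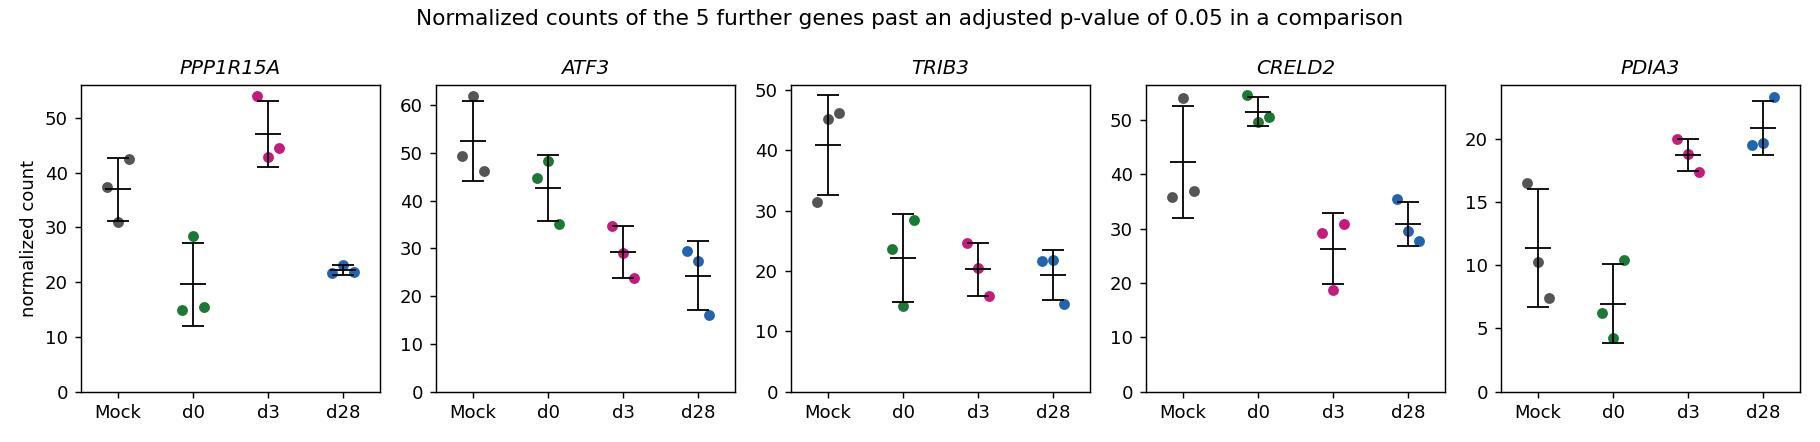
Normalized ATAC-Seq read count (y axis, from 0) of the 5 further genes that passed an adjusted p of 0.05 in a comparison, in Mock, d0, d3 and d28 cells. Points are samples (n = 3), and the lines are mean ± SD. PPP1R15A lies between 42.8 and 53.9 at d3 and at or below 28.4 at d0 and d28, and TRIB3 and ATF3 are lower at d3 and d28 than in Mock cells.

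Beyond the 10 genes, none of the tested genes with the element in its promoter was called against Mock cells, which is near the share of all tested genes. Of 37 genes with an exact ERSE or ERSE-II in the promoter window, 31 were tested, and 26 of them were not among the 10 genes. Of these 26, 0 passed on any day (edgeR), against 0.609%, 1.27% and 1.45% of all tested genes at d0, d3 and d28, and their median log2 fold change was -0.04 at d0, then 0 at d3 and -0.14 at d28. Of the 5 among the 10 genes, HSPA5 and CALR were higher at d3, XBP1 was called at d28, and HSP90B1 and HERPUD1 were not called.

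Samples differed in depth and in mitochondrial reads, which moved with the groups. Total counts were 353430 to 501324 in Mock cells, 648466 to 715327 at d0, 930067 to 1186209 at d3 and 1058754 to 3539937 at d28. Mitochondrially encoded genes took 26.8% ± 0.321 of the counts in Mock cells, 44.0% ± 1.83 at d0, 39.4% ± 5.94 at d3 and 65.5% ± 2.61 at d28 (SD, n = 3). Both were higher at d0 and d3 than in Mock cells, as HSPA5 was, and their part in the values of HSPA5 was not tested. KMT2A, parts of which are in both fusion genes, was higher than in Mock cells by 0.45 at d0, 1.06 at d3 and 1.40 at d28 on the log2 scale. The last 2 passed (adjusted p = 0.000212 and 9.63e-10, edgeR). AFF1, the gene of AF4 and the other source of both, differed by 0.39, 0.22 and 0.29. It did not pass on any day (adjusted p = 0.491, 0.702 and 0.523, edgeR). All 8 HEK293T markers had reads in each sample. Of the blood cell markers examined, HBB and CD3E were at or near 0, from 0 to 2.99 and from 0 to 5.99 in normalized count. The mean normalized count of SPI1 was 20.1 in Mock cells, 25.8 at d0, 27 at d3 and 18.3 at d28, and that of PTPRC was 9.26, 14, 15.3 and 8.83. Neither passed against Mock cells on any day. CD34 went the other way, with means of 18 in Mock cells, 16.3 at d0, 15.5 at d3 and 14 at d28. The 5 blood cell markers, which also include CD34, summed to 44.9 to 54.1 in Mock cells, 57 to 62.4 at d0, 58.5 to 65 at d3 and 42.2 to 43.3 at d28. The 8 HEK293T markers summed to 231 to 251, 249 to 274, 240 to 264 and 202 to 243 in the same order. The blood marker sums were thus higher at d0 and d3 than in Mock cells, as HSPA5 was, though CD34 and HBB had lower means there. The part of these markers in the HSPA5 values was not tested.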

How the data were processed

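The authors prepared ATAC-Seq libraries from nuclei of 12 HEK293T samples and deposited a table of whole-number counts, not normalized, of the reads on 52889 gene entries. The submitters' processing notes name bcl2fastq, Bowtie2, HTSeq and GRCh38, without versions. The transposase shift, duplicate removal and the stretch over which a gene's reads were counted are not given in the sources used here. Across 16891 protein-coding genes the counts correlated weakly with the RefSeq span (Spearman rho 0.157), and levels were not compared between genes. In the labels, the extraction protocol also mentions RNA purification. All columns were matched to samples by title, and 0 columns of other samples were left unused.

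edgeR 4.0.16 in R 4.3.3 was used: TMM factors, a quasi-likelihood fit to all 12 samples with the 4 groups as terms, and the quasi-likelihood F test, with Benjamini-Hochberg adjustment over the 27579 genes whose mean normalized count was above 2 in at least 1 group. A gene was called at an adjusted p below 0.05. The standard error is the log2 fold change divided by the root of the F statistic. The study used DESeq2, which was run as an alternative (version 1.42.0). Normalized counts are scaled to the mean effective library size. Total counts of 353430 to 3539937 limit the precision of genes with few reads. Replicate pairs within a group differed by 1.06 to 1.38 times the chi-square expected from sampling noise, and none was treated as a duplicate. The labels call replicates biological.

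The 10 genes, the wider list of 94, the marker lists and the elements were chosen with earlier results of these data known. One listed marker is not reported here. All 10 genes are named. Of the wider list, the genes past the threshold in any comparison (8 at most) and the 2 with the highest mean count are named, which added CANX and STC2. STC2, a secreted glycoprotein gene, had a log2 fold change of 0.40 at d3 (adjusted p = 0.177, edgeR). TPP1 and the other genes like HSPA5 are the 5 with the highest correlation. Promoter sequences and coordinates are those of RefSeq, GRCh38.p14. Of the 94 genes, 82 had a promoter sequence. Alternatives were DESeq2, RLE factors, library sizes only, omission of the 37 mitochondrially encoded genes, the filterByExpr filter, no filter, fits to only the 2 groups compared, the replicate number as a block and leave-one-out. The procedure was tested on simulated data. Python 3.11.15 and matplotlib 3.10.9 made the figures.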

Additional observations from a re-analysis of the deposited data

Results flagged for a closer look

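XBP1 differed between the 2 groups that carry the same genotype in the labels, d28 and d0, by a log2 fold change of 0.97 (adjusted p = 0.0118, edgeR). The mean normalized count was 39.4 at d28 and 19.9 at d0, and all 3 samples of d28 were above all 3 of d0. By the study's account, the d28 cells had earlier passed through induction of AF4-MLL and those of d0 had not. The 2 groups also differed in total counts and in the mitochondrial share, and the part of these in the difference was not tested. The call was lost without d0 replicate 1, d0 replicate 3 or d28 replicate 1, where the adjusted p was at most 0.115. With library sizes only, without normalization factors, the log2 fold change was 0.06 (adjusted p = 0.887, edgeR).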

How the results depend on the processing

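HSPA5 kept its direction in each comparison under each alternative, except at d28 against Mock cells with library sizes only (-0.74). Leaving out 1 sample in turn gave 1.09 to 1.35 at d0 and 1.59 to 1.85 at d3 against Mock cells, and 0.48 to 0.73 at d28. The number of calls among the other 9 genes was less stable. At d3 against Mock cells it was 0 with DESeq2, RLE factors, filterByExpr, library sizes only and the 2 groups compared alone, in place of 1, since CALR was lost (log2 fold changes 0.97, 0.96, 0.95, 0.66 and 1.00). At d28 against Mock cells it was 0 with DESeq2. Between d28 and d0, DESeq2 gave XBP1 and PDIA3 no adjusted p, so that its counts there are not given. Against Mock cells it gave DDIT3 none on any day, and CALR and PDIA6 none at d0. Leave-one-out gave 0 calls at d0 in each fit and 0 to 1 at d3 and d28 against Mock cells, and between d28 and d0 also 0 to 1. In the wider list it gave 0 to 1 calls at d0, 0 to 3 at d3 and 0 to 2 at d28 against Mock cells, 1 to 3 between d3 and d0 and 0 to 2 between d28 and d0. Between d28 and d0 the wider list had 1 call without mitochondrially encoded genes, 1 without a filter and 5 with filterByExpr, in place of 2.

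Library sizes only moved the median of all tested genes to -0.48, -0.37 and -1.34 at d0, d3 and d28 against Mock cells, 0.10 between d3 and d0, -0.88 between d28 and d0 and -0.98 between d28 and d3, so its values are relative to these shifts. The medians of the 10 genes became -0.39, -0.06 and -1.20 against Mock cells, -1.08 between d28 and d0 and -1.23 between d28 and d3. Of the other 9 genes, 8, 8 and 9 were called at d28 against Mock cells, d0 and d3, and of the wider list 86, 70 and 88, with 10 at d0 and 6 at d3 against Mock cells. Under that setting 57.8%, 39.8% and 52% of all tested genes were called at d28 against Mock cells, d0 and d3, with 4.55% at d0 and 2.29% at d3 against Mock cells, so these counts are no result about the listed genes. Signs turned at d0 for HSP90B1 (-0.38), PDIA4 (-0.33), DNAJB9 (-0.39) and HERPUD1 (-0.27). At d3 they turned for HSP90B1 (-0.24), PDIA4 (-0.15) and DNAJB9 (-0.32). At d28 they turned for HSP90B1 (-1.25), CALR (-1.08), XBP1 (-0.45), ATF4 (-1.15) and HERPUD1 (-1.10). Between d3 and d0 DNAJB9 turned (0.08). Between d28 and d0 HSP90B1 (-0.87), ATF4 (-0.59) and HERPUD1 (-0.83) turned, and between d28 and d3 HSP90B1 (-1.01), XBP1 (-0.73) and DDIT3 (-1). Values near 0 turned under other settings. DNAJB9 at d3 was -0.01 with DESeq2, -0.01 with RLE factors and -0.03 with filterByExpr, and between d3 and d0 it was 0.05 without a filter. HSP90B1 between d3 and d0 was -0.02 with filterByExpr. Between d28 and d3 HSP90B1 was 0 without a filter and with the replicate block, and DDIT3 was -0.01 with DESeq2, 0 without a filter and -0.04 with the replicate block.

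Signs of values near 0 also turned when 1 sample was left out. At d0 against Mock cells the ranges were ATF4 -0.37 to 0.24, DDIT3 -0.29 to 0.11, DNAJB9 -0.23 to 0.26, HSP90B1 -0.07 to 0.18 and XBP1 -0.21 to 0.04. At d3 against Mock cells the ranges were DNAJB9 -0.03 to 0.08 and HSP90B1 -0.02 to 0.24. At d28 against Mock cells the ranges were CALR -0.05 to 0.68 and PDIA4 -0.13 to 0.05. Between d3 and d0 the ranges were DDIT3 -0.36 to 0.09, DNAJB9 -0.21 to 0.28, HSP90B1 -0.08 to 0.19 and PDIA4 0 to 0.16. Between d28 and d0 the ranges were CALR -0.64 to 0.09, DDIT3 -0.33 to 0.09, HERPUD1 -0.05 to 0.16 and HSP90B1 -0.04 to 0.19. Between d28 and d3 the ranges were DDIT3 -0.2 to 0.23 and HSP90B1 -0.13 to 0.13.
The replicate numbers did not pair the samples (mean correlations of deviations from -0.0734 to 0.0346 over 8295 genes), and with the replicate block the number of calls over all genes was 325 in place of 351 at d3, and no call among the 10 genes changed. The filterByExpr filter dropped DDIT3. Raw counts as low as 3 in DDIT3, 6 in PDIA6 and 9 in CALR limit what could be detected.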
